A study of Mus musculus with 6 samples.

Results

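The genes described here encode the proteins of the cytosolic ribosome and the factors that start and carry out translation on it. They were chosen by symbol alone: Rpsa, or Rpl, Rps or Rplp followed by a digit without the Rps6k kinases, or Eif or Eef followed by a digit. Of the 3162 genes held in the deposited values, 72 met this rule. They comprised 52 ribosomal protein rows, 15 initiation factor genes and 5 elongation factor genes. Among the 52 ribosomal rows, 24 encode proteins of the large subunit and 24 proteins of the small subunit. The other 4 rows are Rpl7l1 and Rps19bp1, which are not subunit proteins, the retrotransposed copy Rpl37rt and the processed pseudogene Rps6-ps4.

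RNA of epididymal white adipose tissue, the fat depot beside the epididymis, was sequenced from male wild-type C57BL/6J mice aged 16 weeks. One group of 3 mice was fed normally and the other group of 3 mice was starved for 24 h, with a library from each mouse. The tissue was taken whole, so fewer cells of a type and less RNA per cell cannot be told apart. Values are FPKM, a fragment count that the authors had already scaled to the length of the transcript and to the mapped total of the library.

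The ribosome joins amino acids in the order an mRNA gives, and each mature subunit carries its proteins in fixed proportion around a core of ribosomal RNA. Initiation factors bring the mRNA cap, the small subunit and the initiator tRNA together, and elongation factors deliver tRNAs and move the ribosome along. The mRNAs of ribosomal proteins and of some factors are known as TOP mRNAs, because they begin with a C and a tract of pyrimidines. Their translation is known to follow the activity of mTORC1, the kinase complex that responds to insulin and amino acids, and insulin falls in fasting.

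Nearly all genes held differ between the groups, so the table appears to be a selection made on these libraries, and how it was made is not stated in the labels or headers. Of 2999 genes averaging 1 FPKM or more, limma called 90.5% at an adjusted p under 0.05, with 41.1% higher and 49.4% lower in fasted mice. The median log2 fold change over these genes, fasted minus fed, was -0.34. Passing the test is therefore close to the background for any gene held, and the direction and size carry the information. Only 9 of these genes had a log2 ratio of group means between -0.2 and 0.4. Of the 160 protein-coding genes that the annotation lists under the symbol rule, 70 were held, and the others were not analysed here. These include all subunits of eIF2 and eIF2B, both eEF1A genes, Eef2, the acidic stalk proteins and Rpsa.

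Adipocyte markers were called lower in all 8 of the 21 listed that were held, and their summed level was 6471 to 7735 FPKM in fed and 3670 to 4336 FPKM in fasted libraries. All 5 of 12 endothelial markers held were called higher, with sums of 244 to 283 FPKM in fed and 403 to 571 FPKM in fasted libraries. All 5 of 6 erythroid markers held were called higher, with sums of 1892 to 2800 FPKM against 3955 to 10136 FPKM. Fibroblast markers were split, with 3 of 6 called higher and 3 lower, and their sums were 849 to 1111 FPKM against 1281 to 1937 FPKM. With median-ratio scaling the 3 lower fibroblast calls, Dpt, Col1a2 and Col1a1, were lost (adjusted p = 0.0748, 0.322 and 0.273), as were those of the adipocyte markers Retn (0.0752) and Cebpa (0.356). Macrophage markers were at sums of 13.6 to 17.6 FPKM in fed and 16.5 to 23.4 FPKM in fasted libraries, over 2 of 16 listed, with 1 called in each direction. Among adipocyte markers, Retn was at 3761 to 4786 FPKM in fed and 2670 to 2895 FPKM in fasted libraries. The lymphocyte marker Cd3e and the epididymal marker Adam7 were below 1 FPKM on average, and no mesothelial marker was held. The part of these shifts in the results below was not tested.

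Genes for ribosomal subunit proteins were higher in fasted than in fed fat in both subunits. All 48 of 48 were called higher, where 41.1% of all tested genes were. Their median log2 fold change was 0.53, with a range from 0.42 to 0.82 and standard errors from 0.11 to 0.18. The 24 large subunit and the 24 small subunit genes each had a median of 0.53. In none of the 48 did the fed and fasted values overlap, where groups were apart in 93.4% of all tested genes, 40.8% with fasted libraries wholly higher and 52.6% wholly lower. The smallest rises lie at the edge of what was held, since the first percentile of the log2 ratio of group means among higher genes was 0.45 and the lowest subunit gene had 0.43. Subunit genes with smaller changes would thus mostly be absent from the values.

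**Figure D1:**
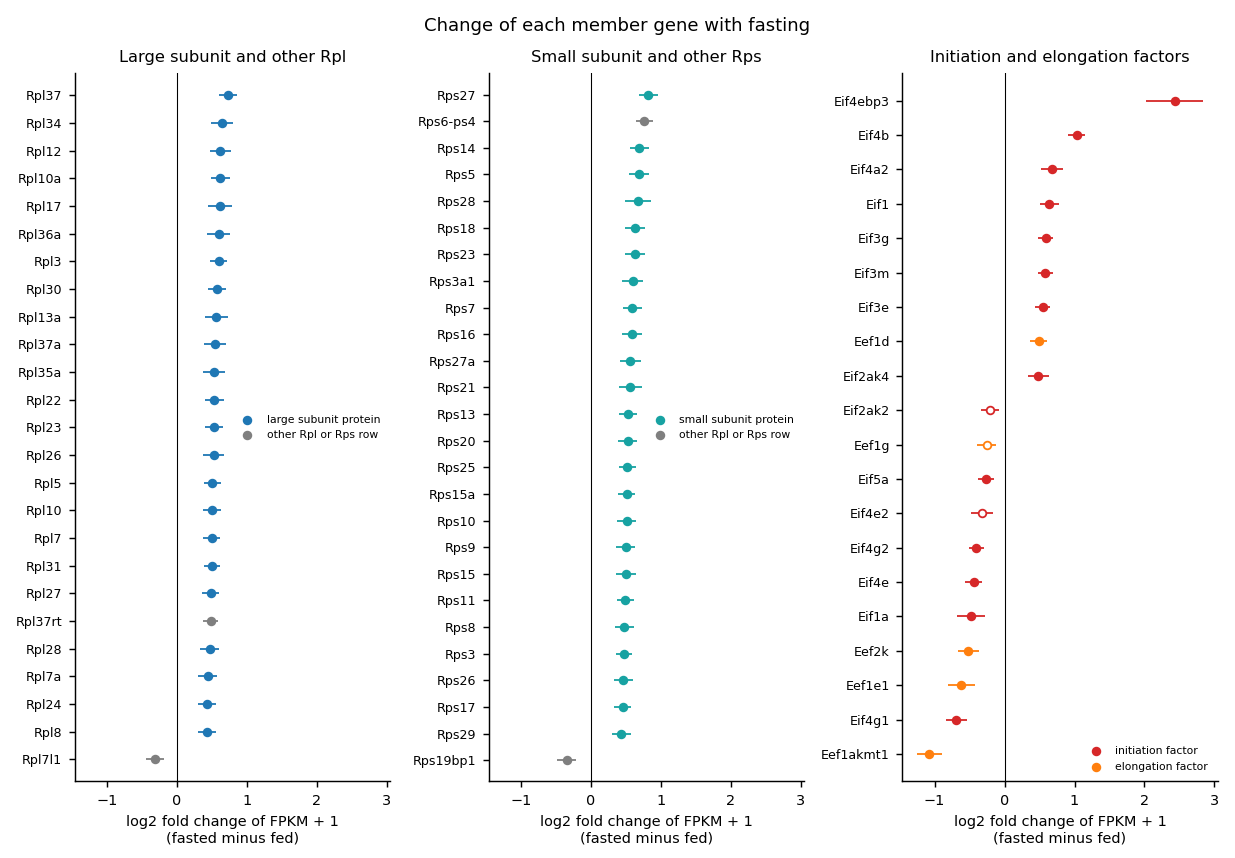
Log2 fold change of FPKM + 1, fasted minus fed, for 71 of the 72 genes, with standard errors as bars. Filled points passed the adjusted p threshold of 0.05 and open points did not. The subunit genes lie between 0.42 and 0.82, while the factors run from -1.07 to 2.43.

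The largest rise among subunit genes was that of Rps27, a small subunit protein with a zinc finger (chr3:90212522-90213651, minus strand, GRCm38). Rps27 stood at 561, 541 and 648 FPKM in fed libraries and at 1112, 1044 and 934 FPKM in fasted libraries. Every fasted library was above every fed library. The group means were 583 ± 56.9 and 1030 ± 89.5 FPKM (SD, n = 3 each). On the log2 scale Rps27 rose by 0.82 ± 0.14 (SE, adjusted p = 0.00283).

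Among large subunit genes, Rpl37 (chr15:5116645-5119140, plus strand) was at a lower level, with 87.6, 81.8 and 82.1 FPKM fed and 158, 138 and 122 FPKM fasted. The change of Rpl37 was 0.72 ± 0.13 (adjusted p = 0.00341). Fasted replicate 1 was the highest and fasted replicate 3 the lowest fasted library for both Rps27 and Rpl37, and the groups did not overlap for either.

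The smallest rises were those of Rpl8 and Rpl24, both large subunit proteins. Rpl8, at 414, 411 and 420 FPKM in fed and 608, 583 and 487 FPKM in fasted libraries, had a log2 fold change of 0.42 ± 0.13 (adjusted p = 0.0172). Rpl24, at 458, 411 and 429 FPKM against 648, 587 and 518 FPKM, had one of 0.43 ± 0.13 (adjusted p = 0.0176). Both genes kept non-overlapping groups, with fasted replicate 3 nearest to the fed values. Calls near the threshold depended on single libraries for 5 subunit genes, Rpl8, Rpl24, Rpl7a, Rps26 and Rps29. Without fasted replicate 2 the adjusted p of Rpl8 was 0.0604, of Rpl24 0.0534, of Rpl7a 0.0674, of Rps26 0.0542 and of Rps29 0.0583. Without fasted replicate 1 that of Rpl8 was 0.0527, of Rpl24 0.0537, of Rpl7a 0.0586 and of Rps29 0.0543. Without fed replicate 3 Rpl7a and Rpl24 had 0.0523 and 0.0503, and without fed replicate 1 Rps29 had 0.0532. In all these fits the direction was the same.

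Levels varied widely between the subunit genes held, while their changes lay between 0.42 and 0.82. Genes with smaller changes would mostly be absent from the values, so the spread of levels and that of changes cannot be compared. On the FPKM scale, which is per length, Rpl10 had the highest level, with group means of 843 ± 55.4 FPKM fed and 1194 ± 110 FPKM fasted (SD, n = 3 each). Rpl10 sits next to the catalytic centre of the large subunit and rose by 0.50 ± 0.13 on the log2 scale (adjusted p = 0.0113). Rps15, at 783 ± 55.2 and 1110 ± 140 FPKM, was the highest of the small subunit and rose by 0.50 ± 0.14 (adjusted p = 0.0144). The lowest level was that of Rps15a, at 21.2 ± 0.3 and 30.8 ± 3.7 FPKM, which rose by 0.51 ± 0.13 (adjusted p = 0.0089). Rps15a and Rps15 thus lay far apart in level, with changes of 0.51 and 0.50. Ribosomal protein genes have many near-identical copies in the mouse genome, and counting could split reads between a gene and its copies, so these levels are uncertain. Some also share exonic sequence with a gene on the opposite strand, such as Rps18 with Vps52 and Rpl28 with Ube2s, and strand was not resolved.

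Proteins with known tasks in the small subunit lay within that range of changes. Rps14, which helps to form the mRNA-binding cleft, rose from 533 ± 14.1 to 868 ± 121 FPKM, by 0.69 ± 0.14 on the log2 scale (adjusted p = 0.00496). Rps28, near the mRNA exit, had the widest relative spread among fasted libraries of the 48 subunit genes, with 568, 468 and 345 FPKM against 274, 284 and 289 FPKM in fed libraries. Its change was 0.68 ± 0.18 (adjusted p = 0.012). Rps3, at the mRNA entry, rose from 140 ± 8.3 to 195 ± 9.4 FPKM, by 0.48 ± 0.11 (adjusted p = 0.00741). Rps27a, made as a fusion to ubiquitin, rose from 255 ± 14.7 to 381 ± 61.0 FPKM, by 0.57 ± 0.15 (adjusted p = 0.0104). Rps14, Rps28, Rps3 and Rps27a, and the 3 large subunit genes that follow, were chosen for their known roles after their values were seen.

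In the large subunit, Rpl5, which carries the 5S ribosomal RNA into the particle, rose from 281 ± 22.7 to 400 ± 29.3 FPKM, by 0.51 ± 0.12 on the log2 scale (adjusted p = 0.00867). Rpl3, which lies close to the catalytic centre, was at 244, 218 and 255 FPKM in fed and at 356, 356 and 370 FPKM in fasted libraries. Rpl3 rose by 0.59 ± 0.12 (adjusted p = 0.00454), and unlike most subunit genes it was not lowest in fasted replicate 3. Rpl22, which is not needed for translation in general, rose from 77.7 ± 2.3 to 114 ± 17.2 FPKM, by 0.53 ± 0.14 (adjusted p = 0.0102).

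The 4 ribosomal rows that are not subunit genes divided by kind. Rps6-ps4, a processed pseudogene (chr2:75191073-75191822, minus strand), was listed at 565, 539 and 612 FPKM in fed and 1021, 1006 and 897 FPKM in fasted libraries. This is a log2 fold change of 0.77 ± 0.13 (adjusted p = 0.00269), and the groups did not overlap. Rps6 itself was not analysed here, and reads of Rps6 and of this copy cannot be told apart in these values. Rpl37rt (chr5:115102923-115110268, minus strand), a transcribed copy of Rpl37, was at 130, 125 and 129 FPKM against 184, 187 and 166 FPKM. The change of Rpl37rt was 0.48 ± 0.11 (adjusted p = 0.00698), and reads may likewise be shared between it and Rpl37.

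Rpl7l1 and Rps19bp1 carry ribosomal protein names, but the first is a relative of Rpl7 that acts in ribosome assembly and the second encodes a binding partner of Rps19. Rpl7l1 was at 25.5, 30.5 and 24.3 FPKM in fed and 21.1, 22.1 and 20.7 FPKM in fasted libraries, a log2 fold change of -0.31 ± 0.13 (adjusted p = 0.0467). Rps19bp1 was at 30.9, 33.1 and 24.5 FPKM against 23.2, 23.0 and 22.2 FPKM, a change of -0.35 ± 0.14 (adjusted p = 0.0441). Both passed the test in the lower direction, with the groups just apart. The call of Rpl7l1 was lost when any single library was left out, with adjusted p from 0.0504 to 0.124. That of Rps19bp1 was lost on leaving out any library except fed replicate 3, with adjusted p up to 0.121. Neither passed after median-ratio or quantile scaling, where the adjusted p was 0.369 and 0.10 for Rpl7l1 and 0.302 and 0.0913 for Rps19bp1.

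The subunit genes moved together from library to library. Relative to the fed mean of each gene, fed libraries had medians over the 48 of 0.977, 1 and 1.03, and fasted libraries had medians of 1.63, 1.5 and 1.26. Fasted replicate 1 was the highest fasted library for 42 of the 48 genes and fasted replicate 3 the lowest for 47 of the 48. Among all 1232 genes called higher, fasted replicate 1 was highest in 62.3% and fasted replicate 3 lowest in 71.8%. The median coefficient of variation of the subunit genes was 4.18% among fed and 13% among fasted libraries, against 13.4% and 17.9% for all genes called higher. Fasted libraries of the erythroid gene Hba-a1 ran in another order, at 2508, 1492 and 3771 FPKM, with fasted replicate 3 the highest. The endothelial markers Eng (156, 155 and 120 FPKM), Emcn, Tek and Egfl7 were highest in fasted replicate 1 and lowest in fasted replicate 3. Pecam1, at 174, 189 and 129 FPKM, was also lowest in fasted replicate 3. The part of cell types in the order of the libraries was not tested.

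**Figure D2:**
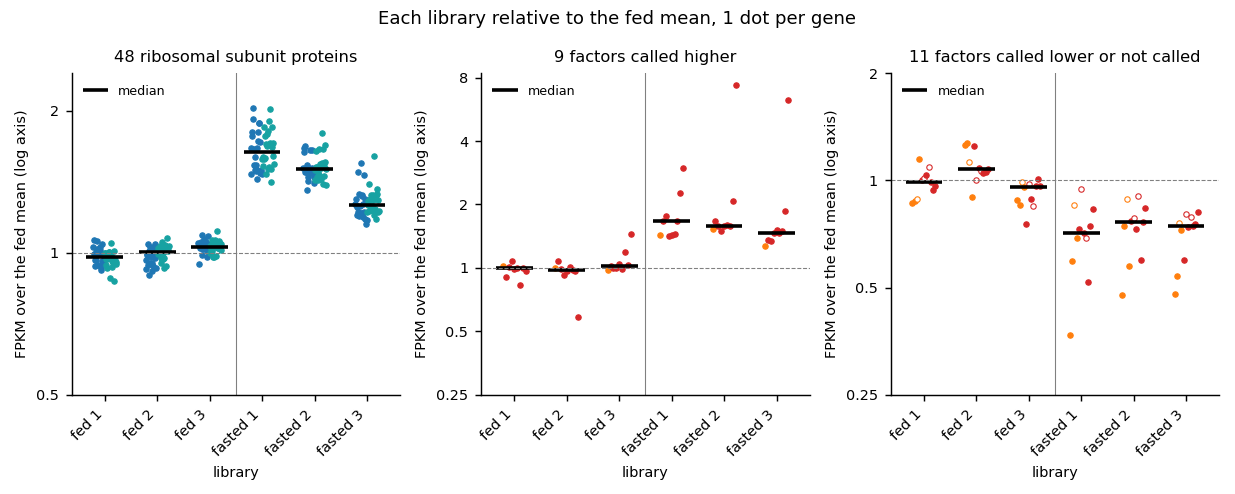
FPKM of each gene divided by its fed mean, on a log axis, in the 3 fed and 3 fasted libraries, with 1 dot per gene and the median as a bar. Open dots are factors that were not called. The median of the subunit genes held is 1.63, 1.5 and 1.26 in the fasted libraries, while the factors spread above and below 1. Genes with smaller changes would mostly be absent, which narrows the band of subunit genes from below.

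The start of a transcript shows whether a gene has the form of a TOP mRNA, and RefSeq starts on GRCm38.p6 were available for 50 of the 72 genes, 37 ribosomal rows, 11 initiation factors and 2 elongation factors. A C at the annotated first base followed by at least 4 pyrimidines was found in 7 of the 37 ribosomal rows (18.9%), in 0 of the 11 initiation factors and in 0 of the 2 elongation factors. Over all 27025 gene symbols in the table the share was 3.01%. Annotated first bases can be off by some bases, so a start without this form says only that these letters are not at that position. Shown are the 10 bases before and the 20 from the annotated start of the 7 ribosomal genes, because they carry the tract that names this class of mRNA. The capitals mark the first base and the unbroken run of pyrimidines from it.
Rpl28: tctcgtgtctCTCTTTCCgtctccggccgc
Rpl35a: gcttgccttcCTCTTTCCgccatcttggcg
Rps10: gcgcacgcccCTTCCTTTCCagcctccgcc
Rps15a: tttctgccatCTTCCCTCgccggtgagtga
Rps18: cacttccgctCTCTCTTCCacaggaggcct
Rps21: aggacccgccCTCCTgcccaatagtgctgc
Rps27: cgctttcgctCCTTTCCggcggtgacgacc

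These lie at chr7:4792955-4792984 (plus strand) for Rpl28, chr16:33056472-33056501 (plus) for Rpl35a, chr17:27635225-27635254 (minus) for Rps10 and chr7:118116128-118116157 (minus) for Rps15a. Rps18 is at chr17:33955646-33955675 (minus), Rps21 at chr2:180257369-180257398 (plus) and Rps27 at chr3:90213629-90213658 (minus). For Rpl35a the start shown is 1 of 3 in the table and for Rps21 1 of 2. The 7 genes include the subunit gene with the largest rise, Rps27 at 0.82, and others near the middle of the range, such as Rpl28 at 0.47 and Rps10 at 0.51 on the log2 scale.

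The same windows are given for 3 initiation factors that rose, Eif1, Eif3g and Eif4b, and for Eif4g1, which fell. They were picked by hand among the factors without this form. Most of the 37 ribosomal rows also lacked it, so the windows do not set factors apart from ribosomal genes. A start without the form does not show that a gene has no TOP mRNA. Here the capital is the annotated first base alone, since no pyrimidine follows a first C or the first base is G.
Eif1: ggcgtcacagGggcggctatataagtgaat
Eif3g: acccgggctgGgagctgcgtggagttaaga
Eif4b: tcccgtcggaCgccgcgccaccccctcgcg
Eif4g1: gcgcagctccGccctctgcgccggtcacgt

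They lie at chr11:100319939-100319968 (plus strand) for Eif1, chr9:20898571-20898600 (minus) for Eif3g, chr15:102073763-102073792 (plus) for Eif4b and chr16:20672717-20672746 (plus) for Eif4g1. Eif4b begins with a C, but the next base is not a pyrimidine.

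Short motifs were searched on both strands over the 300 bases from 250 before to 50 after each start. A gene was counted once if any of its starts had the motif, so genes with more starts had more chances. The ETS-type core CCGGAAG was found for 11 of 37 ribosomal rows (29.7%), for 4 of 11 initiation factors (36.4%) and for 9.93% of all gene symbols. AAGATGG, the core of the YY1 motif, was found for 27% of ribosomal rows, for 18.2% of initiation factors and for 7.28% of all. GGGCGG, the GC box, was in 59.5% and 72.7% against 38.2%. CTTTCC, a pyrimidine stretch, was in 43.2% and 45.5% against 29.3%, and it can overlap the tract at the start. TATAAA was found for 8.11% of ribosomal rows and for 0 of 11 initiation factors, against 15.7% of all. The E-box CACGTG was found for 8.11% of ribosomal rows against 8.09% of all, and for 3 of 11 initiation factors. Ribosomal rows and initiation factors thus held the ETS, YY1 and GC box letters at shares above those over all gene symbols, on small numbers for the factors. That background, like the one for the tract at the start, was not matched to the genes held or to their levels.

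Unlike the subunit genes, the 15 initiation factor genes did not move one way. Of these, 8 were called higher, 5 lower and 2 were not called, where 41.1% and 49.4% of all tested genes were called higher and lower. Their log2 fold changes ran from -0.69 to 2.43 with a median of 0.48. The genes that rose encode an eIF4E-binding protein, eIF4A and its cofactor eIF4B, 3 subunits of eIF3, eIF1 and an eIF2 kinase. Those that fell encode the cap-binding protein eIF4E, the scaffold eIF4G1 and its relative eIF4G2, eIF1A and eIF5A.

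**Figure D3:**
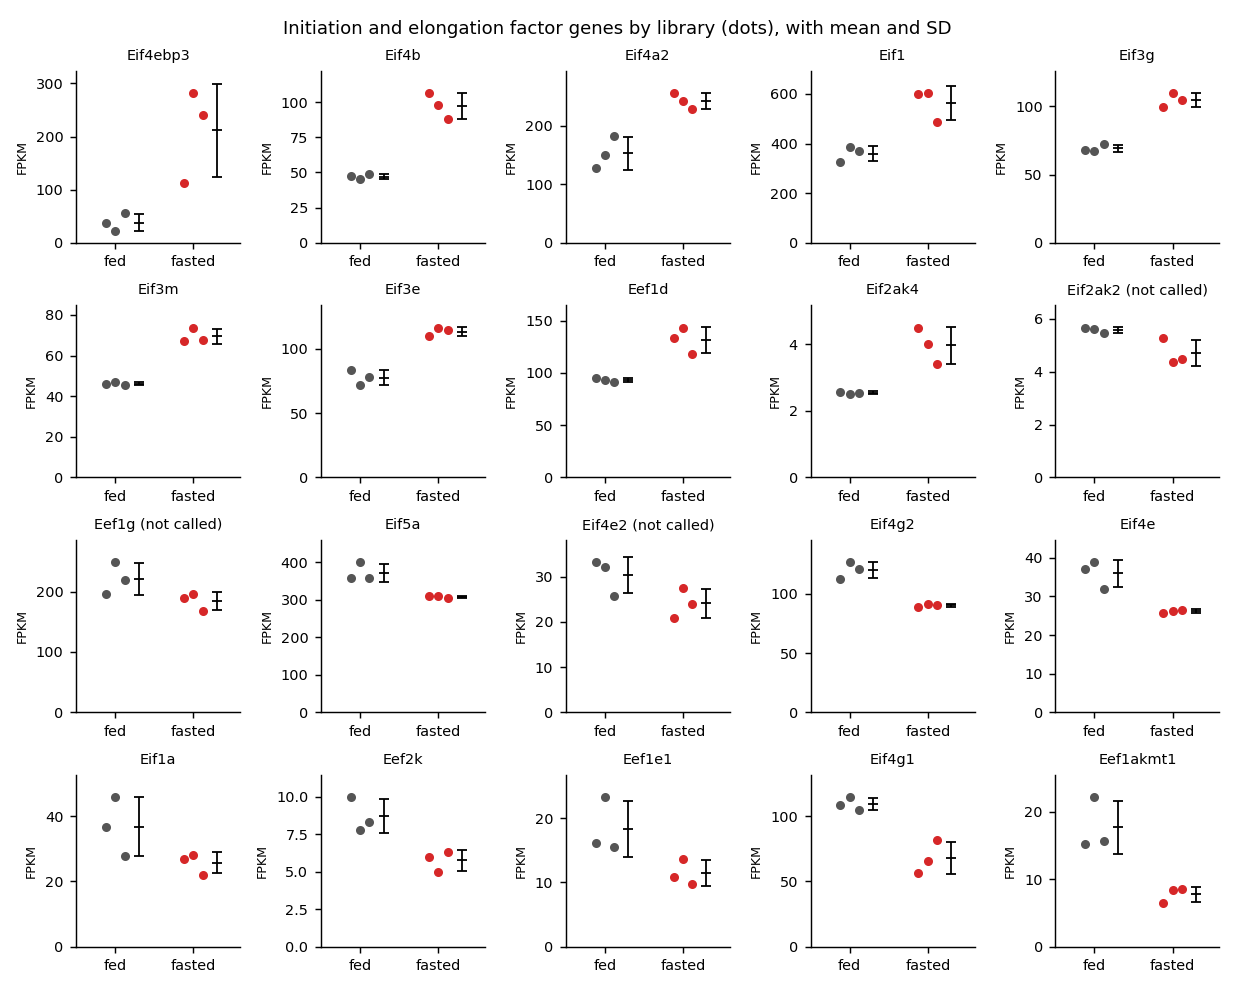
FPKM of the 20 initiation and elongation factor genes in each library as dots, fed and fasted, with the mean and SD beside them, ordered by log2 fold change. Eif4ebp3, at the top, spans 22.2 to 55.2 FPKM fed and 113 to 282 FPKM fasted, and Eef1akmt1, at the end, spans 15.2 to 22.2 FPKM fed and 6.50 to 8.49 FPKM fasted.

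Eif4ebp3 encodes a small protein that binds eIF4E and keeps it from eIF4G. It was at 36.8, 22.2 and 55.2 FPKM in fed and 113, 282 and 240 FPKM in fasted libraries. The lowest fasted library was above the highest fed library. With group means of 38.1 ± 16.6 and 211 ± 87.8 FPKM (SD, n = 3 each), the ratio was 5.55 and the log2 fold change 2.43 ± 0.41 (SE, adjusted p = 0.00288). It was the largest change among the 72 genes, and it had the largest standard error. Eif4ebp3 shares exonic sequence with the gene AC115631.1 on the same strand, and reads of the pair cannot be told apart. The other 4E-binding proteins, Eif4ebp1 and Eif4ebp2, were not analysed here.

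The cap-binding complex eIF4F, which eIF4E, eIF4G and eIF4A form, changed in both directions. Eif4e, which binds the cap, was at 37.1, 38.8 and 31.9 FPKM fed and at 25.7, 26.3 and 26.6 FPKM fasted. The fasted libraries were close together and below all fed libraries, a log2 fold change of -0.44 ± 0.12 (adjusted p = 0.012). Eif4g1 (chr16:20668313-20692884, plus strand), the scaffold that joins the cap complex to the small subunit, was at 108, 115 and 105 FPKM fed and at 56.7, 65.4 and 81.4 FPKM fasted. The fall of Eif4g1 was the largest among initiation factors, at -0.69 ± 0.15 (adjusted p = 0.00605), and it was smallest in fasted replicate 3. Eif4g2, a related scaffold that does not bind eIF4E, was at 113, 127 and 121 FPKM against 89.3, 91.9 and 90.7 FPKM, a change of -0.40 ± 0.11 (adjusted p = 0.0111).

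Scaling bears on these falls. With median-ratio scaling the adjusted p was 0.0876 for Eif4e and 0.115 for Eif4g2, and with quantile scaling it was 0.176 for Eif4g2. Eif4g1 stayed called under both scalings and without each library, with adjusted p from 0.00386 to 0.0356. Eif4e2, a cap-binding relative of eIF4E that represses translation, was at 33.2, 32.3 and 25.8 FPKM fed and at 20.9, 27.5 and 23.9 FPKM fasted. Its groups overlapped and it did not pass the test (-0.32 ± 0.15, adjusted p = 0.0731), although without fed replicate 3 the adjusted p was 0.0435.

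The genes held for the helicase and its cofactor, Eif4a2 and Eif4b, rose, while Eif4a1 was not analysed here. Eif4b (chr15:102073773-102097173, plus strand), which stimulates the eIF4A helicase, was at 47.2, 45.3 and 48.7 FPKM in fed and 106, 97.9 and 87.8 FPKM in fasted libraries. Every fasted library was well above every fed one, and the group means of 47.0 ± 1.7 and 97.4 ± 9.3 FPKM gave a ratio of 2.07. Its log2 fold change was 1.03 ± 0.12 (adjusted p = 0.000946), the smallest p among the 72 genes. Eif4a2, one of the genes for the helicase itself, was at 127, 149 and 182 FPKM against 255, 242 and 229 FPKM, a change of 0.68 ± 0.15 (adjusted p = 0.00679). Eif4a2 overlaps exons of Rfc4 on the opposite strand and has 5 small nucleolar RNA genes inside it.

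The 3 genes held of the 12 annotated for eIF3, the complex that docks the mRNA on the small subunit, rose by 0.54 to 0.59 on the log2 scale. Eif3g was at 68.2, 67.1 and 72.3 FPKM in fed and 99.5, 110 and 105 FPKM in fasted libraries, a log2 fold change of 0.59 ± 0.11 (adjusted p = 0.00363). Eif3m was at 46.2, 46.8 and 45.4 FPKM against 67.0, 73.7 and 67.7 FPKM, a change of 0.58 ± 0.11 (adjusted p = 0.00369). Eif3e was at 83.2, 71.7 and 77.6 FPKM against 109, 116 and 114 FPKM, a change of 0.54 ± 0.11 (adjusted p = 0.00527). Groups did not overlap for any of the 3, and each was highest in fasted replicate 2, where most subunit genes were highest in fasted replicate 1.

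Among single-protein factors, Eif1, which guards the choice of the start codon, was at 325, 386 and 369 FPKM fed and at 600, 603 and 486 FPKM fasted. Eif1 rose by 0.64 ± 0.14 (adjusted p = 0.00634), with groups well apart. Eif1a, whose product works beside eIF1 in scanning, went the other way, at 36.9, 45.9 and 27.8 FPKM against 26.9, 28.3 and 22.1 FPKM. The groups of Eif1a overlapped, its change was -0.48 ± 0.19 (adjusted p = 0.045), and the call held on leaving out fed replicate 3 but no other library (adjusted p up to 0.137). Eif5a, which helps ribosomes past difficult residues such as proline, was at 357, 399 and 357 FPKM against 308, 310 and 303 FPKM. Its change of -0.27 ± 0.11 was just past the threshold (adjusted p = 0.0484), and the call was lost on leaving out any 1 library (adjusted p 0.0742 to 0.113). With median-ratio scaling the adjusted p was 0.177 for Eif1a and 0.567 for Eif5a, and with quantile scaling 0.0842 and 0.258.

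Of the 4 annotated eIF2 kinases, which slow initiation by phosphorylating eIF2, 2 were held. Eif2ak4, known as GCN2 and activated by uncharged tRNA when amino acids run short, had a low level of 2.58, 2.5 and 2.55 FPKM in fed and 4.5, 4 and 3.41 FPKM in fasted libraries. All fasted values were higher, a log2 fold change of 0.48 ± 0.15 (adjusted p = 0.0173), which on the log2(FPKM + 1) scale understates the change. Without fasted replicate 2 the adjusted p of Eif2ak4 was 0.0539. Eif2ak2, known as PKR and activated by double-stranded RNA, was at 5.66, 5.60 and 5.46 FPKM against 5.28, 4.36 and 4.47 FPKM. It did not pass the test (-0.21 ± 0.13, adjusted p = 0.161), although its groups did not overlap. Eif2ak3 was not analysed here.

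Elongation factor genes moved in both directions. Of the 5 held, 1 was called higher, 3 lower and 1 was not called, with a median log2 fold change of -0.52, where 41.1% of all tested genes were called higher and 49.4% lower. Eef1d, a subunit of the eEF1B complex that reloads eEF1A with GTP, was at 95.5, 93.2 and 91.2 FPKM fed and 133, 143 and 118 FPKM fasted. Eef1d rose by 0.49 ± 0.12 (adjusted p = 0.0082), and it shares exonic sequence with Naprt on the same strand. Eef1g, another subunit of that complex, was at 196, 249 and 220 FPKM against 189, 197 and 169 FPKM. Its groups overlapped slightly, it did not pass the test (-0.26 ± 0.13, adjusted p = 0.0936), and with quantile scaling the sign was reversed (0.044).

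The 3 called falls lay in genes that modify or accompany elongation factors. Eef1akmt1, which methylates a lysine of eEF1A, was at 15.2, 22.2 and 15.6 FPKM in fed and 6.50, 8.39 and 8.49 FPKM in fasted libraries. All fasted libraries were below all fed libraries, a log2 fold change of -1.07 ± 0.18 (adjusted p = 0.00293), the largest fall of the 72 genes. Eef1e1, which sits in the complex of aminoacyl-tRNA synthetases, was at 16.1, 23.3 and 15.6 FPKM against 10.9, 13.7 and 9.84 FPKM (-0.62 ± 0.19, adjusted p = 0.0179). Eef2k, the kinase that phosphorylates and blocks eEF2, was at 9.98, 7.81 and 8.34 FPKM against 5.99, 4.99 and 6.31 FPKM (-0.52 ± 0.15, adjusted p = 0.0143).

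The fall of Eef1akmt1 stayed called under both scalings and without each library, with adjusted p up to 0.0123. Eef1e1 missed the threshold with median-ratio scaling (adjusted p = 0.0588), without fasted replicate 1 (0.0509) and without fasted replicate 3 (0.0577). Eef2k missed it with median-ratio scaling (0.0876) and without fasted replicate 2 (0.0552).

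Set side by side, the summed level of the 52 ribosomal rows was 19031, 19411 and 20165 FPKM in fed and 32206, 29669 and 25037 FPKM in fasted libraries. The sum over the 20 factors was 1760, 1949 and 1877 FPKM against 2235, 2449 and 2195 FPKM. The 20 include genes of regulators, such as Eif4ebp3 and Eef2k. The ribosomal sum over the factor sum was thus 10.8, 9.96 and 10.7 in fed and 14.4, 12.1 and 11.4 in fasted libraries, and the groups did not overlap. Within the ribosome, the large subunit sum over the small subunit sum stayed between 0.841 and 0.888 in all 6 libraries. Ribosomal rows made up 9.28% to 10.2% of the summed FPKM held in fed libraries and 17.1%, 16.1% and 13.9% in the fasted ones.

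**Figure D4:**
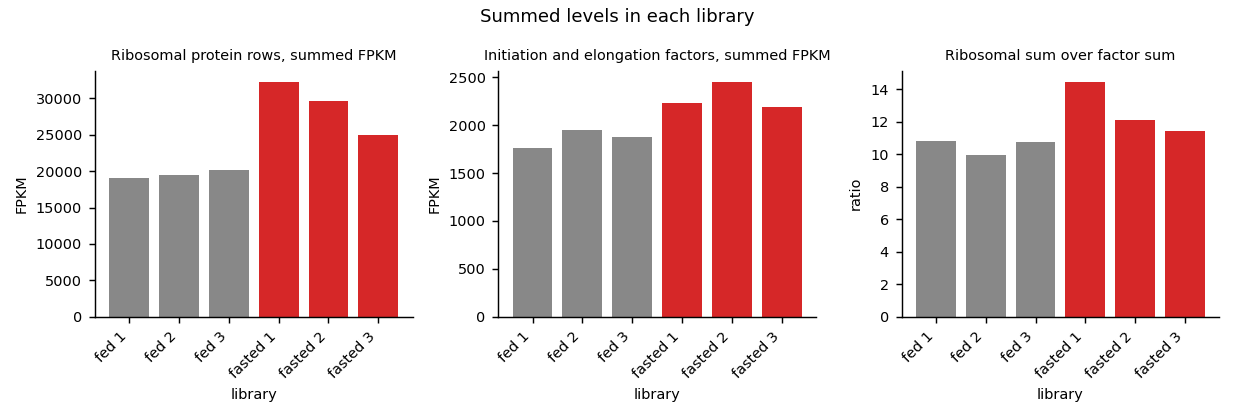
Summed FPKM of the 52 ribosomal rows and of the 20 factors in each library, and the ratio of these sums, with bars from 0. The ratio is at most 10.8 in the fed libraries and 11.4 to 14.4 in the fasted libraries.

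As medians rather than sums, the 52 ribosomal rows had a log2 fold change of 0.53 and the 20 factors -0.23, a difference of 0.76, where the median of all tested genes was -0.34. Per library, relative to the fed mean, the ribosomal median minus the factor median was -0.03, -0.04 and 0.07 in fed and 0.82, 0.73 and 0.61 in fasted libraries. Every fasted library thus had the larger difference. Of the factors 9 were called higher and 8 lower, so their median lies between 2 sets that moved apart. Taken alone, the 15 initiation factors had a median of 0.48, near that of the ribosomal rows. The 5 elongation factor genes had one of -0.52, which is the value of the kinase gene Eef2k. Without Eef2k and the methyltransferase gene Eef1akmt1, the other 3 had a median of -0.26. Of these, 1 was called higher, 1 lower and 1 was not called. The difference of 0.76 thus depends on pooling the 2 kinds of factor. Scaling moved the median over all tested genes upwards, from -0.34 to -0.15 with median-ratio and to -0.21 with quantile scaling. Not every gene followed: with quantile scaling Rps6-ps4 went from 0.77 to 0.68 and the initiation factor median from 0.48 to 0.34. All 48 subunit genes were called higher under both scalings, with medians of 0.74 and 0.61, where 41.2% and 40.2% of all tested genes were called higher. Called falls among initiation factors went from 5 to 1 and 2, where 26.2% and 38.9% of all tested genes were called lower.

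Ribosomal rows also differed from factors in features the rule did not use. The median exonic length was 1754 bases for ribosomal rows, 5113 for initiation factors, 3257 for elongation factors and 4294 for all genes held. Median levels were 403 FPKM fed and 588 FPKM fasted for ribosomal rows, 47 and 90.6 FPKM for initiation factors, 18.3 and 11.5 FPKM for elongation factors and 15.1 and 13.9 FPKM for all genes held. A small nucleolar RNA gene, whose product guides chemical changes of ribosomal RNA, lay inside 18 of the 52 ribosomal genes (34.6%), 3 of the 15 initiation factors and 0 of the 5 elongation factors, against 2.82% of all genes held. The ribosomal genes were spread over 17 chromosomes. No test was made of whether length or level moved with the change.

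When each untested gene was given the largest possible p, fewer calls remained. Over all protein-coding genes, 9 ribosomal rows were called higher, where 18.6% of tested genes were, and 0 lower, where 16.5% were. Among initiation factors 7 were called higher and 1, Eif4g1, lower, and among elongation factors Eef1akmt1 alone was called, as lower. Over all annotated genes, Rps6-ps4 (adjusted p = 0.0497) and Eif4b (0.0175) were the only calls among the 72, where 5.74% of tested genes were called higher and 6.4% lower.

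Genes linked to these by pathway were taken from lists, most of whose members were not analysed here. Both held ribosome components outside the symbol rule rose, of 3 listed. Fau, the source of small subunit protein eS30, had a log2 fold change of 0.63 ± 0.16 (adjusted p = 0.00929), and Rack1, a scaffold on the small subunit, one of 0.44 ± 0.12 (adjusted p = 0.0111). Both lay in the range of the subunit genes. Other genes with known TOP mRNAs were called higher in 6 of 7 held and lower in 1, of 15 listed, where 41.1% and 49.4% of all tested genes were. Fau and Rack1 are among the 6. Npm1, a nucleolar chaperone, rose by 0.95 ± 0.13, and Naca, which binds nascent chains at the ribosome, by 0.64 ± 0.13. The exception was Vim, the intermediate filament protein vimentin, with -1.08 ± 0.18 (adjusted p = 0.00283).

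Genes of ribosome biogenesis and RNA polymerase I were called higher in 13 of 18 held and lower in 5, of 135 listed, where 41.1% and 49.4% of all tested genes were. Their median change on the log2 scale was 0.58. Besides Npm1, Sbds, which readies the large subunit for joining, rose by 0.56 ± 0.11, and Riok2, a kinase of small subunit maturation, by 0.79 ± 0.16. Rbm28, a nucleolar protein of large subunit assembly, fell to 11.9, 10.5 and 10.1 FPKM from 40.9, 48.6 and 27.7 FPKM, a change of -1.73 ± 0.20 (adjusted p = 0.000997). Pno1 (-0.62 ± 0.17) and Utp6 (-0.40 ± 0.12), both of small subunit assembly, also fell, but with median-ratio scaling their adjusted p was 0.0565 and 0.111.

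Of the mTORC1 pathway, 15 of 48 listed genes were held, with 7 called higher and 8 lower. These shares are near those over all tested genes, 41.1% higher and 49.4% lower. Genes of proteins that restrain mTORC1 moved in both directions. Ddit4, which acts through the TSC complex, was at 26.5, 27.3 and 33.2 FPKM in fed and 137, 195 and 137 FPKM in fasted libraries, a log2 fold change of 2.38 ± 0.17 (adjusted p = 0.000314). Sesn1, a stress-induced protein that restrains the pathway, rose by 1.08 ± 0.22. Flcn, also of this list, rose by 1.19 ± 0.22 (adjusted p = 0.00375). Sesn2, a relative of Sesn1, rose by 1.08 ± 0.26 (adjusted p = 0.00768) and Tsc1, of the TSC complex, by 0.44 ± 0.13 (adjusted p = 0.016). Deptor, an inhibitor of mTOR, and Tbc1d7, a subunit of the TSC complex, had changes of -1.27 ± 0.25 (adjusted p = 0.00472) and -0.61 ± 0.14 (adjusted p = 0.00709). Sesn2, Tsc1, Deptor and Tbc1d7 are named after their values were seen. Lamtor1, the lysosomal anchor of the Rag GTPases, fell by 0.84 on the log2 scale, Mapkap1, a part of the sister complex mTORC2, by 0.72, and Sec13, of the GATOR2 complex, by 0.66. Fnip1 and Slc38a9 were the other genes called higher, and Rptor, Lamtor2 and Lamtor4 the others called lower. With median-ratio scaling Rptor, Lamtor2 and Lamtor4 were not called (adjusted p = 0.321, 0.277 and 0.193). Rps6ka3 and Rps6ka4, kinases left out by the symbol rule and not among the mTORC1 genes held, had changes of -1.16 ± 0.15 and -0.40 ± 0.12.

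A mixed list of translation regulators, 29 genes that act on the cap, the poly(A) tail, TOP mRNAs or eIF2 phosphorylation, was called higher in 6 of 8 held and lower in 1, where 41.1% and 49.4% of all tested genes were. No gene of a poly(A)-binding protein was among the 8. Ppp1r15a, which directs the removal of phosphate from eIF2, rose by 1.04 ± 0.20 and the cold-induced RNA-binding protein gene Cirbp by 1.43 ± 0.28. Ybx3, an mRNA-binding protein, rose by 0.71 ± 0.12. Mknk2, a kinase of eIF4E, had a change of -0.44 ± 0.13 (adjusted p = 0.0139), which was not called with median-ratio scaling (0.114) or quantile scaling (0.0637). Of termination and rescue genes, 3 of 12 listed were held, with 1 in each direction and 1 not called. Zfp598, which marks collided ribosomes, rose by 1.03 ± 0.23, and Mcts1, of subunit recycling, had a change of -0.38 ± 0.13 (adjusted p = 0.0261, and 0.181 with median-ratio scaling). Cytosolic aminoacyl-tRNA synthetase genes were held for 3 of 23 listed. Aimp1, a scaffold of the synthetase complex, rose by 0.62 ± 0.13, whereas Aars and Rars had changes of -0.55 ± 0.15 and -0.34 ± 0.13, neither called with median-ratio scaling (adjusted p = 0.0962 and 0.278).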

How the data were processed

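The authors deposited FPKM values per gene for each library, per the file headers, and the submitters' processing notes name RSEM with mm10 and GRCm38.p6. No label or header names the aligner, the annotation release or the versions. No counts were given, so depth is unknown and no counting interval is printed, and strand was not resolved.

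Of the 3162 identifiers held in all 6 libraries, 3158 matched a GRCm38 symbol. All 72 members had a mean of at least 1 FPKM. The test was limma 3.58.1 in R 4.3.3 (lmFit, eBayes with a variance trend) on log2(FPKM + 1) over 2999 genes, two-sided, with Benjamini-Hochberg adjustment and a threshold of 0.05. A fold change on this scale understates changes of low genes. The fit was also run on simulated data in which a small share of genes was changed. Because most genes held differ here, that run does not show how well the p-values are calibrated for these values. Groups follow the label for treatment, and replicates are numbered in accession order.

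The members and lists were chosen with earlier results of these data known. Values in every library are given for the 4 largest and 2 smallest rises and every fall among ribosomal rows and for the factors, except that 1 gene is counted in the sums and counts but not reported here. From each list up to 3 genes per direction with the smallest p are named, and further mTORC1 genes after their values were seen. Alternatives were another pseudocount (0.1), no filter, median-ratio and quantile scaling, no variance trend, leaving out each library, and adjustment over all protein-coding or all annotated genes, with untested genes at the largest p.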

Additional observations from a re-analysis of the deposited data

How the results depend on the processing

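No paired analysis was possible because the labels give the fed and fasted mice no shared replicate numbers. All 48 subunit genes kept their direction under every alternative. With a pseudocount of 0.1 or with no filter, all 72 members kept their direction and their side of the threshold. The single reversal was Eef1g, at 0.044 with quantile scaling against -0.26. The difference between the median of ribosomal rows and that of initiation and elongation factors pooled, 0.76, was 0.65 with quantile scaling and 0.71 to 0.82 on leaving out 1 library. The cause of these differences was not tested, except that stricter adjustment counts more genes.

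Ribosomal rows called higher numbered 9 with adjustment over protein-coding genes, 1 over all annotated genes and 45 to 50 on leaving out 1 library. Those called lower, 2 in the report, were 0 with median-ratio scaling, quantile scaling, no variance trend and both stricter adjustments, and 0 to 1 without 1 library. Initiation factors called higher were 1 over all annotated genes and 7 to 8 without 1 library. Those called lower, 5 in the report, were 1 with median-ratio scaling, 2 with quantile scaling, 3 with no trend, 1 and 0 with the stricter adjustments and 3 to 5 without 1 library. Elongation factors called higher were 0 and 0 with the stricter adjustments. Those called lower were 1 with median-ratio scaling, 1 and 0 with the stricter adjustments, 1 without the kinase and methyltransferase genes and 2 to 3 without 1 library.

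Over all tested genes, calls higher were 557 and 172 with the stricter adjustments. Calls lower were 787 with median-ratio scaling, 495 and 192 with the stricter adjustments. The share of calls that were higher was 45.4% and became 61.1% with median-ratio scaling.

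In the lists, with adjustment over protein-coding and then all annotated genes, calls higher were 0 and 0 for ribosome components, 3 and 0 for translation regulators, 3 and 1 for mTORC1, 6 and 1 for biogenesis and 2 and 1 for other TOP genes. They were 0 over all annotated genes for termination and for synthetases. Without 1 library, calls higher were 5 to 6 for regulators, 5 to 7 for mTORC1, 13 to 13 for biogenesis and 4 to 6 for other TOP genes. Calls lower with median-ratio scaling were 0 for termination, regulators and synthetases, 5 for mTORC1 and 1 for biogenesis. With quantile scaling they were 0 for termination and regulators, 5 for mTORC1 and 1 for synthetases. With the stricter adjustments they were 0 and 0 for termination, regulators and synthetases, 4 and 0 for mTORC1, 1 and 1 for biogenesis, and 0 over all annotated genes for other TOP genes. Without 1 library they were 0 to 1 for termination, 5 to 7 for mTORC1, 3 to 5 for biogenesis and 1 to 2 for synthetases.

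Without depth or counts, how far low genes such as Eif2ak4 and Eif2ak2 are limited by sampling cannot be stated.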
